A study of Mus musculus with 6 samples.

Results

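The genes described here are 42 matrix proteases, inhibitors of these proteases and lysyl oxidases, picked by gene symbol for their function from the 53700 genes of the expression table. They comprise 7 secreted and 5 membrane-bound matrix metalloproteinases (MMPs), 5 MMP inhibitors, 7 ADAM and 8 ADAMTS proteases, 5 plasminogen activator, receptor and serpin genes, and 5 lysyl oxidases. Each symbol named 1 row of the table. RNA-seq was performed on SL4, a mouse colorectal cancer (CRC) cell line that expresses luciferase. The comparison was between 3 libraries of SL4 cells without overexpression of SEMA6A (pLV-Control) and 3 libraries of SL4 cells with overexpression of SEMA6A, a transmembrane semaphorin, from a lentiviral vector in a stable line (pLV-SEMA6A). The labels give the control cells only as cells without the overexpression, so whether they carry an empty vector is not settled here. No treatment or time point is given for either group. No independently made pLV-SEMA6A lines are described, so an effect of SEMA6A cannot be told apart from a difference between lines, and the p-values measure the spread between these libraries, which may be technical.

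MMPs, ADAMs and ADAMTS proteases are zinc metalloproteinases. MMPs cleave collagens, gelatin and other matrix proteins, ADAMs mostly shed the outer parts of membrane proteins, and ADAMTS enzymes cleave proteoglycans such as aggrecan and versican or process procollagens. Tissue inhibitors of metalloproteinases (TIMPs) block the active sites, plasminogen activators supply plasmin, which degrades fibrin and activates some MMPs, and lysyl oxidases cross-link collagen and elastin. In colorectal tumours much of this machinery is known to be made by stromal cells, and tumour cells make part of it themselves.

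Expression was given as TPM, in which each value is scaled by transcript length and by the sum of its library, so that levels can be set side by side between genes. The number of reads behind a value is unknown, since TPM keeps no depth. The listed values of a library summed to at least 984475 in pLV-Control and to at most 977972 in pLV-SEMA6A. Sema6a stood at 0 in the 3 control libraries and at 98.7 to 118 TPM in those with the overexpression. The defining markers of colon epithelium were close to absent in both groups. All 8 of them were under 1 TPM in every library, Epcam and Cdx2 at 0. Of 7 leukocyte markers, 6 were under 1 TPM in every library and 4 were at 0 in all, Adgre1, Tyrobp and Cd3e among them, while Cd14 was present and their summed level was 11.4 to 12.4 TPM in pLV-Control against 15.4 to 17.5 TPM in pLV-SEMA6A. Of 6 fibroblast markers, 4 had a mean of at least 1 TPM, and the summed level of the list was 15.8 to 16.6 TPM in pLV-Control against 13.5 to 14.9 TPM in pLV-SEMA6A. Within that list Col1a1 rose (means of 1.27 and 3.60 TPM), Col1a2 was at 0.42 and 0.87 TPM and was not tested, and Pdgfrb (10.5 and 6.66 TPM) and Pdgfra (1.76 and 0.78 TPM) fell. Pdgfra reached a mean of 1 TPM only through its control level. Its call was lost with the replicate number as a block (limma, adjusted p = 0.0681). All 4 endothelial markers were under 1 TPM in every library, with a summed level of at most 0.16 TPM in pLV-Control against 0.22 TPM in pLV-SEMA6A. The part of these markers in the results below was not tested.

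The MMPs of SL4 cells were a small part of the family. Mmp14, Mmp11, Mmp2, Mmp19, Mmp23 and Mmp16 had a mean of at least 1 TPM, and the other 6 did not. The stromelysins Mmp3 and Mmp10 and the collagenase Mmp13 lie in a cluster on mouse chromosome 9, where Mmp3 and Mmp10 are direct neighbours, and all 3 were listed at no more than 0.08 TPM in any library. The promoter windows of these 3 genes are shown first, followed by those of 5 expressed members (Mmp11, Mmp14, Timp1, Timp2 and Timp3), chosen for their place in the results below, so that the base composition and motifs of both sets can be read side by side. Each window runs from 250 bases before to 50 bases after the RefSeq start on GRCm38.p6, is written 5′ to 3′ on the gene's strand, and has capitals at matches of the AP-1 motif (TGANTCA), the TATA box (TATAAA, or TTTATA on the other strand) and the GC box (GGGCGG, or CCGCCC on the other strand). The windows of Mmp3 (chr9:7445572-7445871), Mmp10 (chr9:7502092-7502391) and Mmp13 (chr9:7272264-7272563) lie on the plus strand.
Mmp3: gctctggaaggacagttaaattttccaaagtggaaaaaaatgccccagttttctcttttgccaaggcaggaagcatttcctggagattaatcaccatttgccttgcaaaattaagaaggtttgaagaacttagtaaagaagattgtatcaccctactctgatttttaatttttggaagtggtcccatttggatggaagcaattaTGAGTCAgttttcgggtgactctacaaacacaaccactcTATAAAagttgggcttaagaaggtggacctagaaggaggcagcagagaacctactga
Mmp10: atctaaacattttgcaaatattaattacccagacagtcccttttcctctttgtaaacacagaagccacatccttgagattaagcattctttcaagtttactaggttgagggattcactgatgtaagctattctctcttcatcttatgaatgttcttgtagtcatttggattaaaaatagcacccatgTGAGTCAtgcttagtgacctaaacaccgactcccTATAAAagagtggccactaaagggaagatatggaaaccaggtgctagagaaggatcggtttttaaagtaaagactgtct
Mmp13: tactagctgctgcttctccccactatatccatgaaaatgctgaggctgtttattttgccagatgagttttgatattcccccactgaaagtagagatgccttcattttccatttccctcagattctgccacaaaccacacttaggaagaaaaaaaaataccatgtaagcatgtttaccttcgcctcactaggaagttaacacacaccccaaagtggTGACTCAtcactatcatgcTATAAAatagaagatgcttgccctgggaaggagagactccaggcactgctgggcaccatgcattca
The windows of Mmp14 (chr14:54431348-54431647), Timp1 (chrX:20869916-20870215) and Timp3 (chr10:86300162-86300461) are on the plus strand, and those of Mmp11 (chr10:75932453-75932752) and Timp2 (chr11:118355362-118355661) on the minus strand.
Mmp11: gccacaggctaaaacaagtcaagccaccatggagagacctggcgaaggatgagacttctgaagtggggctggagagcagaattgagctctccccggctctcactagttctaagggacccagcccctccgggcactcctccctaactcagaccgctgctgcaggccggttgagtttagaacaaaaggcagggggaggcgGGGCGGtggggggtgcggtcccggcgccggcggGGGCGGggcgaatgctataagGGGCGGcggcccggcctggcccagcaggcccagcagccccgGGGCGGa
Mmp14: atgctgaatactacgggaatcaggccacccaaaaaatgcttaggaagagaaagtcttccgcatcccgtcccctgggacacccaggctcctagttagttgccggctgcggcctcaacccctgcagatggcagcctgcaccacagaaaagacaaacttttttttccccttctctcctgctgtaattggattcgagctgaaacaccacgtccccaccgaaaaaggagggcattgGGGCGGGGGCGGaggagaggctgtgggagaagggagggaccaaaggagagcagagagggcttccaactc
Timp1: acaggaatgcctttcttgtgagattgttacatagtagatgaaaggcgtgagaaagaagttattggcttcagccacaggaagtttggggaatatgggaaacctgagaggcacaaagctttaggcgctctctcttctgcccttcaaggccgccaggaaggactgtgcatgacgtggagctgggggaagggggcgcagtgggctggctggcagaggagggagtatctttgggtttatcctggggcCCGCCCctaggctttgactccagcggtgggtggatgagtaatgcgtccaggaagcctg
Timp2: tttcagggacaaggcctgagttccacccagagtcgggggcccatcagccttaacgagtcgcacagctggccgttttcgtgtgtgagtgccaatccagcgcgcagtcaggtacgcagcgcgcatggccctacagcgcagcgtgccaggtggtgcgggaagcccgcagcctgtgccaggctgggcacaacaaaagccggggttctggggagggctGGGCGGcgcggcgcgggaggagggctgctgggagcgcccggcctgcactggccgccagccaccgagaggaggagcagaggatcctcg
Timp3: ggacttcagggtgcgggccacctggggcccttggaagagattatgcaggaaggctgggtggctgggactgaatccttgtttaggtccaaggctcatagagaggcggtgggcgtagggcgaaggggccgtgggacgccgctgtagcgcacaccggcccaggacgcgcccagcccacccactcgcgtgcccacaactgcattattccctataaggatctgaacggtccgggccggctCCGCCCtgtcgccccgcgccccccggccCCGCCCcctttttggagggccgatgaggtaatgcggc

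The cluster genes had GC contents of 40.0% (Mmp3), 37.7% (Mmp10) and 43.7% (Mmp13), under the median of 52.7% over all 32851 windows of the RefSeq table. Each held 1 AP-1 match, which began 46, 63 and 35 bases before the start, and 1 TATA box match, and none held a GC box. In the 5 expressed members the GC content was 55.0% (Timp1) to 68.7% (Timp2), and each held at least 1 GC box, with 4 in Mmp11, and no AP-1 or TATA box match. Over all windows of the table, 7.81% held the AP-1 motif, 13.6% the TATA box and 35.7% the GC box. The table held 25 of the 42 members with 28 windows. AP-1 was found in 5 of them (Mmp3, Mmp10, Mmp13, Plaur and 1 of the 3 windows of Adam19), the TATA box in 4 (the cluster genes and Adamts1) and the GC box in 19. Among the 17 with a mean of at least 1 TPM, 15 held the GC box, and Serpinf1 (50.7% GC) and Adamts12 did not. Of those below 1 TPM, Mmp15, Adamts2, Adamts9 and Serpine2 held it as well, at 66.0% to 77.7% GC. Timp4 and the cluster genes did not. The GC box was thus not confined to the expressed members. The STAT motif (TTCNNNGAA on both strands, in 8.30% of all windows) was found only in Mmp23. These letters describe the windows and do not show binding, and Adamts4, Adamts7 and Adamts10 had no entry.

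In pLV-SEMA6A, RNA for Adamts4, Adamts7, Adamts10, Timp3, Adam19 and Mmp11 was lower, RNA for Timp1, Timp2 and Adam10 was somewhat higher, and that for urokinase, its receptor and Mmp14 did not pass the test. Of the 42 members, 30 had a mean of at least 1 TPM over the 6 libraries and were tested. A gene was counted as a DEG (differentially expressed gene) when its adjusted p was under 0.05 and its log2 fold change exceeded 0.5 in either direction. These come from limma with Benjamini-Hochberg adjustment over all 12510 genes tested. Folds are on the log2(TPM + 1) scale, where the added 1 makes changes of low genes look smaller. By this criterion 6 members were lower in pLV-SEMA6A (Adamts4, Adamts7, Adamts10, Timp3, Adam19 and Mmp11) and none was higher. This is 20.0% of those tested, where 15.9% of all genes tested were DEGs, 5.12% higher and 10.8% lower. At an unadjusted p under 0.05, 7 members were higher and 13 lower, and none of the 7 passed the minimum fold change. The share of all genes at an unadjusted p was not counted, so the 7 and 13 cannot be read as particular to the members. With an adjusted p under 0.05 and no minimum fold change, which is what rose and fell mean here, 5 members rose (Mmp19, Mmp16, Timp1, Timp2 and Adam10), 12 fell and 13 did neither. For comparison, 47.6% of all genes tested passed that threshold, 19.5% higher and 28.2% lower.

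The median log2 fold change of the 30 tested members was −0.16, beside −0.06 over all genes tested. After centring of each library at its own median, the members' median was −0.07, beside 0.03 over all genes tested. Their DEGs were then 2 higher (Adam8 and Mmp16) and 4 lower (Adamts4, Adamts7, Adamts10 and Timp3). The DEGs among all genes were 1002 higher and 961 lower in place of 640 and 1347. With no minimum fold change, centring gave 9 members higher and 10 lower, in place of 5 and 12. Adam8, Plat, Adam9 and Adam17 were gained there, and Adam15 and Adamts5 were lost. The share of all genes that passed at this centred setting was not counted, so these counts cannot be read as particular to the members. In 8 members every pLV-SEMA6A library lay above every pLV-Control library, in 14 every one lay below, and in 8 the groups overlapped. The groups did not overlap in 58.5% of all genes tested (23.8% above and 34.7% below). In bulk RNA, fewer cells that express a gene and less of its RNA per cell cannot be told apart. The 12 members that were not tested were Mmp3, Mmp9, Mmp10, Mmp13, Mmp15, Mmp17, Timp4, Adam12, Adamts2, Adamts9, Serpine2 and Loxl2. A value at or near 0 can be a failed estimate, since mt-Co3 stood at 0.33 TPM in pLV-SEMA6A replicate 2 but at 141 to 450.1 TPM elsewhere. None of the 12 exceeded 0.53 TPM in any library, and Mmp15 and Timp4 were listed at 0 in all 6.

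**Figure D1:**
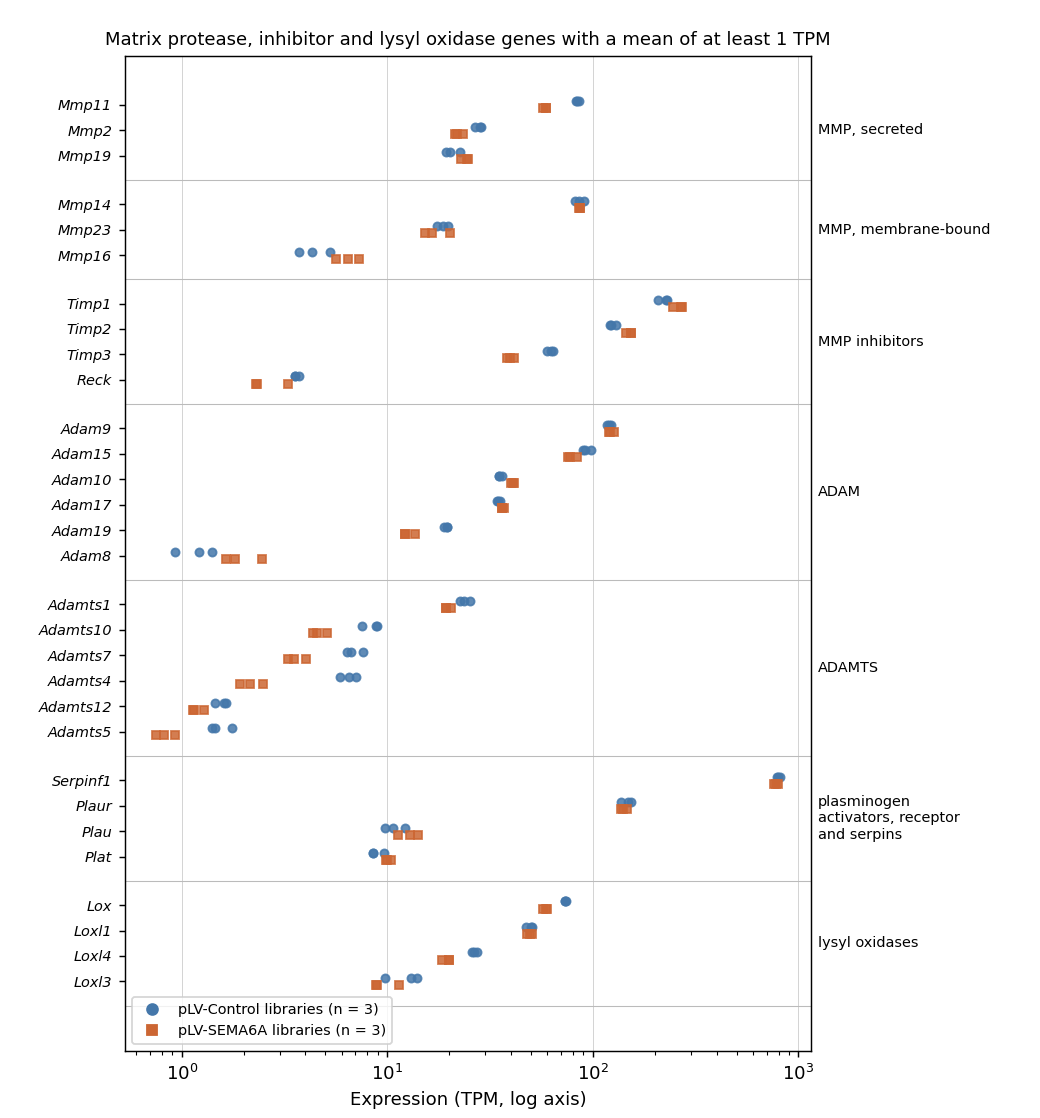
Expression of the 30 tested members in each library (TPM, log axis), grouped by role, with circles for the 3 pLV-Control libraries and squares for the 3 pLV-SEMA6A libraries. Serpinf1 lies highest at 763 to 813 TPM and Adamts5 lowest, and the squares of Adamts4 at 1.93 to 2.49 TPM lie left of its circles at 5.89 to 7.08 TPM.

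**Figure D2:**
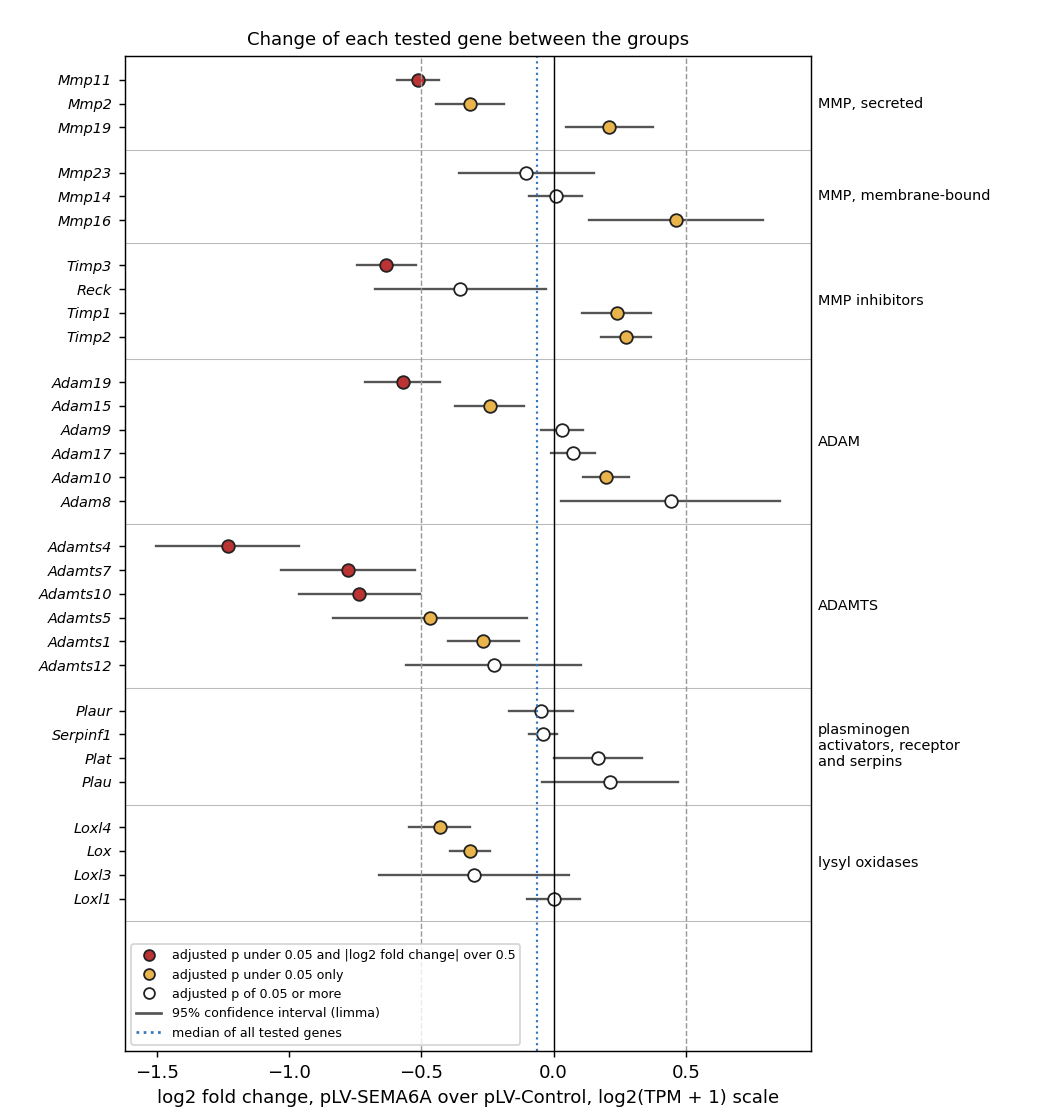
log2 fold change of each tested member, pLV-SEMA6A over pLV-Control on the log2(TPM + 1) scale, with 95% confidence intervals from limma. Dashed lines mark the minimum of 0.5 in either direction, the dotted line marks the median of all tested genes at −0.06, and the 6 DEGs all lie left of −0.5, from Mmp11 at −0.51 to Adamts4 at −1.23.

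Among the secreted MMPs, 3 of 7 were tested, and Mmp11 and Mmp2 fell while Mmp19 rose. Mmp11 (stromelysin 3, on chromosome 10), which cleaves serpins and collagen VI more readily than the fibrillar collagens, was at 83.4, 82.4 and 85.7 TPM in the 3 controls, against 59.4, 57.0 and 59.1 TPM in the 3 pLV-SEMA6A libraries. All 3 pLV-SEMA6A libraries lay below all 3 controls. Its mean, 83.9 ± 1.70 TPM in the controls (SD, n = 3) against 58.5 ± 1.33 TPM with SEMA6A (SD, n = 3), fell by 30.3%, with a log2 fold change of −0.51 (SE 0.03, adjusted p = 6.23e-05). The fold lay just past the minimum and was −0.50 without pLV-Control replicate 3, −0.49 without pLV-SEMA6A replicate 2 and −0.42 after centring (adjusted p = 0.000156), where Mmp11 was no longer a DEG. Its exons share 5.58% of their bases with Chchd10 on the other strand, which was at 62.0 TPM in pLV-Control against 47.0 TPM in pLV-SEMA6A, and whether reads were counted by strand is not stated.

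Mmp2 (gelatinase A), which degrades denatured collagen and basement membrane collagen IV and is activated at the cell surface by MMP14 with TIMP2, was at 26.6 to 28.6 TPM in pLV-Control against 21.3 to 23.3 TPM in pLV-SEMA6A. It fell by 20.3%, with a log2 fold change of −0.32 (SE 0.05, adjusted p = 0.00334). Mmp19, a widely expressed MMP that cleaves basement membrane proteins, was at 19.3 to 22.6 TPM in pLV-Control against 22.9 to 24.8 TPM in pLV-SEMA6A. The lowest pLV-SEMA6A library of Mmp19 lay just above the highest control, and the log2 fold change of 0.21 (SE 0.07, adjusted p = 0.0434) was no longer past the threshold when any 1 library other than pLV-Control replicate 2 was left out (adjusted p up to 0.119) or when no filter on low values was set (adjusted p = 0.0848). Mmp19 shares 22.3% of its exon bases with Tmem198b on the other strand, which was at 9.59 TPM in pLV-Control against 8.26 TPM in pLV-SEMA6A. Mmp9, the other gelatinase, was listed at 0.02 to 0.22 TPM and was not tested.

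Of the 5 membrane-bound MMPs, 3 were tested and 1 rose. Mmp14 (MT1-MMP), the main pericellular collagenase and the activator of pro-MMP2, was at 81.6, 85.3 and 90.3 TPM in the 3 controls, against 86.6, 85.2 and 86.6 TPM in the 3 pLV-SEMA6A libraries. Its groups overlapped, with a log2 fold change of 0.01 (95% CI −0.09 to 0.11, adjusted p = 0.882). Mmp16 (MT3-MMP), another activator of pro-MMP2, was at 3.73 to 5.24 TPM in pLV-Control against 5.62 to 7.32 TPM in pLV-SEMA6A. It rose with a log2 fold change of 0.46 (SE 0.14, adjusted p = 0.0316), under the minimum for a DEG. Its call did not hold without the filter on low values (adjusted p = 0.0873), without pLV-Control replicate 1 or 3 or without pLV-SEMA6A replicate 2 or 3 (adjusted p up to 0.0921), while its fold passed the minimum without pLV-Control replicate 2 (0.57) or pLV-SEMA6A replicate 1 (0.54). Mmp23, which is released from the membrane by cleavage of its own N-terminal anchor, was at 17.4 to 19.7 TPM in pLV-Control against 15.3 to 20.2 TPM in pLV-SEMA6A, with a log2 fold change of −0.10 (95% CI −0.36 to 0.15, adjusted p = 0.457). Mmp17 (MT4-MMP) was at 0.07 to 0.17 TPM in pLV-Control against 0.02 to 0.04 TPM in pLV-SEMA6A, and was not tested.

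Of the 5 inhibitors, 4 were tested, and Timp1 and Timp2 rose while Timp3 fell. Timp1, a secreted inhibitor of most MMPs, was at 227, 229 and 208 TPM in the 3 controls, against 267, 245 and 272 TPM in the 3 pLV-SEMA6A libraries. Timp2, which blocks MMPs and also takes part in the activation of pro-MMP2 by MMP14, was at 121, 122 and 129.5 TPM in the 3 controls, against 145, 153 and 153 TPM in the 3 pLV-SEMA6A libraries. For both genes every pLV-SEMA6A library lay above every control. Timp1 rose by 18.1% with a log2 fold change of 0.24 (SE 0.05, adjusted p = 0.0114), and Timp2 rose by 21.1% with a log2 fold change of 0.27 (SE 0.04, adjusted p = 0.00164), both under the minimum for a DEG.

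Timp3, which stays bound to the extracellular matrix and also inhibits ADAM17 and aggrecan-cleaving ADAMTS enzymes, was at 59.5, 62.8 and 63.9 TPM in the 3 controls, against 41.5, 39.6 and 38.1 TPM in the 3 pLV-SEMA6A libraries. Again the groups did not overlap, but here the pLV-SEMA6A libraries were the lower ones. Its mean, 62.1 ± 2.27 TPM in the controls (SD, n = 3) against 39.7 ± 1.74 TPM with SEMA6A (SD, n = 3), fell by 36.0%, with a log2 fold change of −0.63 (SE 0.05, adjusted p = 0.000108). After centring it was still a DEG at −0.54. Reck, a membrane-anchored inhibitor of MMP2, MMP9 and MMP14, was at 3.54 to 3.70 TPM in pLV-Control against 2.29 to 3.28 TPM in pLV-SEMA6A, with a log2 fold change of −0.35 (95% CI −0.67 to −0.03, adjusted p = 0.0713) that did not pass the threshold. Timp1, Timp3 and Timp4 each lie within a synapsin gene on the other strand (Syn1, Syn3 and Syn2), and these synapsin genes were listed at no more than 0.49 TPM in any library. Timp3 shares 21.3% of its exon bases with Syn3.

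**Figure D3:**
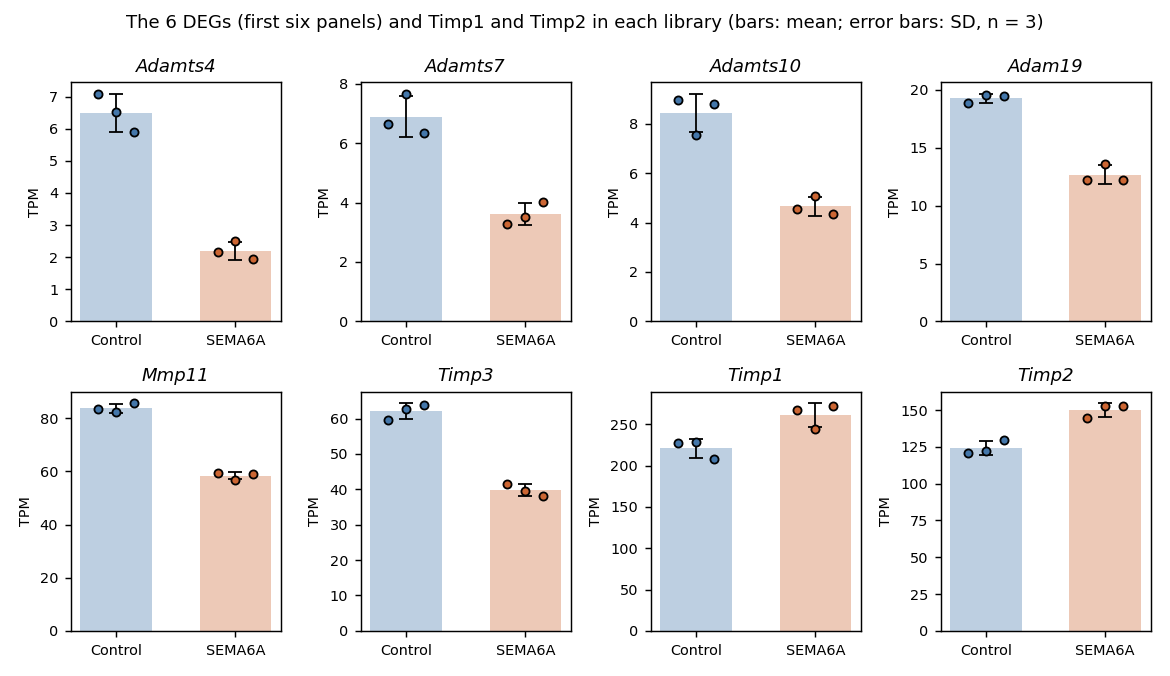
Expression (TPM, axes from 0) of the 6 DEGs and of Timp1 and Timp2 in each library, with bars for the mean and error bars for the SD (n = 3 a group). In the panels of the DEGs the pLV-SEMA6A points lie below all control points (Adamts4 at 1.93 to 2.49 TPM, controls at 5.89 to 7.08 TPM), and in those of Timp1 and Timp2 they lie above.

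Of the 7 ADAM genes, 6 were tested, and Adam19 and Adam15 fell while Adam10 rose. Adam19 (meltrin beta), a sheddase that releases neuregulin, was at 18.8, 19.5 and 19.5 TPM in the 3 controls, against 12.2, 13.6 and 12.2 TPM in the 3 pLV-SEMA6A libraries. No pLV-SEMA6A library reached the lowest control. Its mean, 19.3 ± 0.39 TPM in the controls (SD, n = 3) against 12.7 ± 0.83 TPM with SEMA6A (SD, n = 3), fell by 34.2%, with a log2 fold change of −0.57 (SE 0.06, adjusted p = 0.000449), and after centring the fold was −0.48, under the minimum. Adam15, which carries an integrin-binding sequence, was at 89.1 to 98.3 TPM in pLV-Control against 75.3 to 83.6 TPM in pLV-SEMA6A. It fell with a log2 fold change of −0.24 (SE 0.05, adjusted p = 0.0111), and did not pass the threshold after centring (adjusted p = 0.0581).

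Adam10, the main sheddase of Notch receptors and cadherins, was at 35.1, 36.0 and 34.8 TPM in the 3 controls, against 39.8, 40.8 and 41.4 TPM in the 3 pLV-SEMA6A libraries. It rose by 15.2%, with a log2 fold change of 0.20 (SE 0.04, adjusted p = 0.00445). Adam17 (TACE), which sheds TNF and the EGF receptor ligands, was at 34.1, 35.2 and 34.6 TPM in the 3 controls, against 36.2, 36.3 and 37.1 TPM in the 3 pLV-SEMA6A libraries. Its groups did not overlap either, but the log2 fold change of 0.07 (95% CI −0.01 to 0.16, adjusted p = 0.124) did not pass the threshold, and after centring it did, at 0.17 (adjusted p = 0.00955). Adam17 shares 4.35% of its exon bases with Iah1 on the other strand, which was at 84.9 TPM in pLV-Control against 70.9 TPM in pLV-SEMA6A. The most abundant ADAM was Adam9, a broad sheddase, at 118 to 122 TPM in pLV-Control against 119.9 to 127 TPM in pLV-SEMA6A, with a log2 fold change of 0.03 (95% CI −0.05 to 0.11, adjusted p = 0.465). Adam9 too passed the threshold after centring, at 0.12 (adjusted p = 0.0183). Adam8, known best from leukocytes, was at 0.93 to 1.40 TPM in pLV-Control against 1.65 to 2.45 TPM in pLV-SEMA6A, with a log2 fold change of 0.44 (SE 0.17, adjusted p = 0.0751). After centring Adam8 was a DEG at 0.54 (adjusted p = 0.0427). Adam12, a marker of activated stroma, was listed at 0.11 to 0.41 TPM.

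Of the 8 ADAMTS genes, 6 were tested. Adamts4, Adamts7 and Adamts10 were DEGs, all lower, Adamts1 and Adamts5 fell without reaching the minimum, and Adamts12 did not pass the threshold. Adamts4 (aggrecanase 1), on chromosome 1, was at 7.08, 6.51 and 5.89 TPM in the 3 controls, against 2.16, 2.49 and 1.93 TPM in the 3 pLV-SEMA6A libraries. Even the highest pLV-SEMA6A library lay far below the lowest control. Its mean, 6.49 ± 0.60 TPM in the controls (SD, n = 3) against 2.19 ± 0.28 TPM with SEMA6A (SD, n = 3), fell by 66.2%, with a log2 fold change of −1.23 (SE 0.11, adjusted p = 0.000266), and it was the only member past a log2 minimum of 1.

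Adamts7, which cleaves cartilage oligomeric matrix protein, was at 6.65, 7.66 and 6.35 TPM in the 3 controls, against 3.29, 3.50 and 4.01 TPM in the 3 pLV-SEMA6A libraries. Adamts10, which binds fibrillin and is mutated in a form of Weill-Marchesani syndrome, was at 8.94, 7.53 and 8.81 TPM in the 3 controls, against 4.55, 5.09 and 4.35 TPM in the 3 pLV-SEMA6A libraries. In both genes no pLV-SEMA6A library reached the lowest control. Adamts7 fell by 47.7%, with a log2 fold change of −0.78 (SE 0.10, adjusted p = 0.00134), and Adamts10 fell by 44.7%, with a log2 fold change of −0.73 (SE 0.10, adjusted p = 0.00115). Both were DEGs under every alternative run, each library left out included, except the log2 minimum of 1. Adamts7 shares 1.94% of its exon bases with Tbc1d2b on the other strand, which was also lower, at 10.3 TPM in pLV-Control against 7.29 TPM in pLV-SEMA6A.

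Adamts1 and Adamts5, both aggrecanases, are direct neighbours on chromosome 16. Adamts1, the more abundant of the pair, was at 22.7 to 25.3 TPM in pLV-Control against 19.2 to 20.4 TPM in pLV-SEMA6A, and fell with a log2 fold change of −0.27 (SE 0.06, adjusted p = 0.00854). Adamts5 was at 1.41 to 1.75 TPM in pLV-Control against 0.75 to 0.93 TPM in pLV-SEMA6A, so that it reached the filter of 1 TPM only through the control level. Its log2 fold change of −0.47 (SE 0.15, adjusted p = 0.0442) had the largest adjusted p of the 12 falls. The call was lost after centring (adjusted p = 0.0869), under a replicate block (adjusted p = 0.1004) and without any 1 of the 6 libraries (adjusted p up to 0.115). Adamts12 was at 1.45 to 1.64 TPM in pLV-Control against 1.14 to 1.29 TPM in pLV-SEMA6A, with a log2 fold change of −0.23 (95% CI −0.56 to 0.10, adjusted p = 0.219). Adamts9 was at 0.13 to 0.30 TPM in pLV-Control against 0.35 to 0.43 TPM in pLV-SEMA6A. Adamts2, a procollagen N-proteinase, stood at 0.53 TPM in 1 library, pLV-SEMA6A replicate 1, and at no more than 0.03 TPM elsewhere.

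None of the 4 tested plasminogen activator, receptor and serpin genes passed the threshold, and 1 of them had an unadjusted p under 0.05 (Plat). Plau (urokinase, uPA) was at 9.80, 10.7 and 12.2 TPM in the 3 controls, against 12.9, 11.3 and 14.1 TPM in the 3 pLV-SEMA6A libraries. Its receptor Plaur (uPAR), which holds urokinase at the cell surface, was at 153, 148 and 136 TPM in the 3 controls, against 137, 139.7 and 146 TPM in the 3 pLV-SEMA6A libraries. In both genes the groups overlapped, with a log2 fold change of 0.21 (95% CI −0.05 to 0.47, adjusted p = 0.149) for Plau and a log2 fold change of −0.05 (95% CI −0.17 to 0.07, adjusted p = 0.467) for Plaur. Plat (tissue plasminogen activator, tPA) was at 8.52, 8.49 and 9.59 TPM in the 3 controls, against 9.97, 9.85 and 10.4 TPM in the 3 pLV-SEMA6A libraries. Its libraries did not overlap, but the log2 fold change of 0.17 (95% CI 0.00 to 0.33, adjusted p = 0.0874) did not pass, and it did after centring (adjusted p = 0.0217).

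Serpinf1 (pigment epithelium-derived factor, PEDF), a secreted serpin that inhibits no protease and is known as an inhibitor of vessel growth, was the most abundant member. At 788 to 813 TPM in pLV-Control against 763 to 791 TPM in pLV-SEMA6A it stood above 98.5% of the genes tested, with a log2 fold change of −0.04 (95% CI −0.09 to 0.01, adjusted p = 0.179). Serpine2 (protease nexin 1), an inhibitor of thrombin and urokinase, was listed at 0.07 to 0.35 TPM.

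Of the 5 lysyl oxidases, 4 were tested, and Lox and Loxl4 fell. Lox, which cross-links fibrillar collagens and elastin, was at 73.0, 73.2 and 73.7 TPM in the 3 controls, against 59.8, 59.1 and 57.0 TPM in the 3 pLV-SEMA6A libraries. Controls lay close together, and all pLV-SEMA6A libraries lay below them. Its mean, 73.3 ± 0.37 TPM in the controls (SD, n = 3) against 58.7 ± 1.46 TPM with SEMA6A (SD, n = 3), fell by 20.0%, with a log2 fold change of −0.32 (SE 0.03, adjusted p = 0.000369). A 30-base stretch of its exons, 0.628%, is shared with the antisense gene Gm41724, which was at 52.2 TPM in pLV-Control against 21.4 TPM in pLV-SEMA6A. Loxl4 was at 25.9 to 27.2 TPM in pLV-Control against 18.5 to 19.9 TPM in pLV-SEMA6A, and fell by 26.8% with a log2 fold change of −0.43 (SE 0.05, adjusted p = 0.000627).

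Loxl1, which is needed for elastic fibres, was at 47.2 to 50.6 TPM in pLV-Control against 47.9 to 50.6 TPM in pLV-SEMA6A, nearly the same range, with a 95% CI of −0.10 to 0.10 for the log2 fold change (adjusted p = 0.998). Loxl3 was at 9.79 to 13.9 TPM in pLV-Control against 8.80 to 11.4 TPM in pLV-SEMA6A, with a log2 fold change of −0.30 (95% CI −0.66 to 0.06, adjusted p = 0.144), and it shares 11.6% of its exon bases with Htra2 on the other strand (70.9 TPM in pLV-Control against 77.7 TPM in pLV-SEMA6A). Loxl2, the collagen IV cross-linking family member, was listed at 0.13, 0.35 and 0.24 TPM in the 3 controls, against 0.30, 0.25 and 0.17 TPM in the 3 pLV-SEMA6A libraries. In GENCODE M21, 46.2% of the 31-base stretches of Loxl2 transcripts also occur in other genes, mainly Gm21451, so its reads could be split between them.

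Summed over each role, the RNA for secreted MMPs was lower in pLV-SEMA6A and that for TIMPs was higher. The TPM of the 7 secreted MMPs summed to 131, 132 and 135 in the 3 controls, against 104, 103 and 108 in the 3 pLV-SEMA6A libraries. The 4 TIMPs summed to 407, 413 and 401 in the 3 controls, against 454, 437 and 462 in the 3 pLV-SEMA6A libraries. Neither sum overlapped between the groups. The membrane-bound MMPs, which are mostly Mmp14, summed to 109 ± 5.13 TPM in the controls against 109.9 ± 2.90 TPM with SEMA6A (SD, n = 3). The ADAMTS genes summed to 49.0 ± 1.11 TPM in the controls against 32.7 ± 0.74 TPM with SEMA6A (SD, n = 3), the ADAMs to 304 ± 2.54 TPM in the controls against 293 ± 3.42 TPM with SEMA6A (SD, n = 3) and the lysyl oxidases to 162 ± 2.64 TPM in the controls against 137 ± 1.91 TPM with SEMA6A (SD, n = 3). All these sums are of uncentred TPM. Whether a difference as small as that of the ADAMs would keep its direction after centring was not tested.

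The ratio of TIMP to MMP RNA was 1.73, 1.72 and 1.61 in the 3 controls, against 2.13, 2.08 and 2.10 in the 3 pLV-SEMA6A libraries. The makeup of both pools also differed between the groups. Timp3 gave 15.2% of the TIMP RNA in pLV-Control and 8.81% in pLV-SEMA6A, and Timp1 gave 54.3% and 57.9%. Mmp11 gave 34.7% of the MMP RNA in pLV-Control and 27.2% in pLV-SEMA6A, while Mmp14 gave 35.5% and 40.1%. These sums and shares describe RNA per length, are led by their most abundant genes and carry no test.

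**Figure D4:**
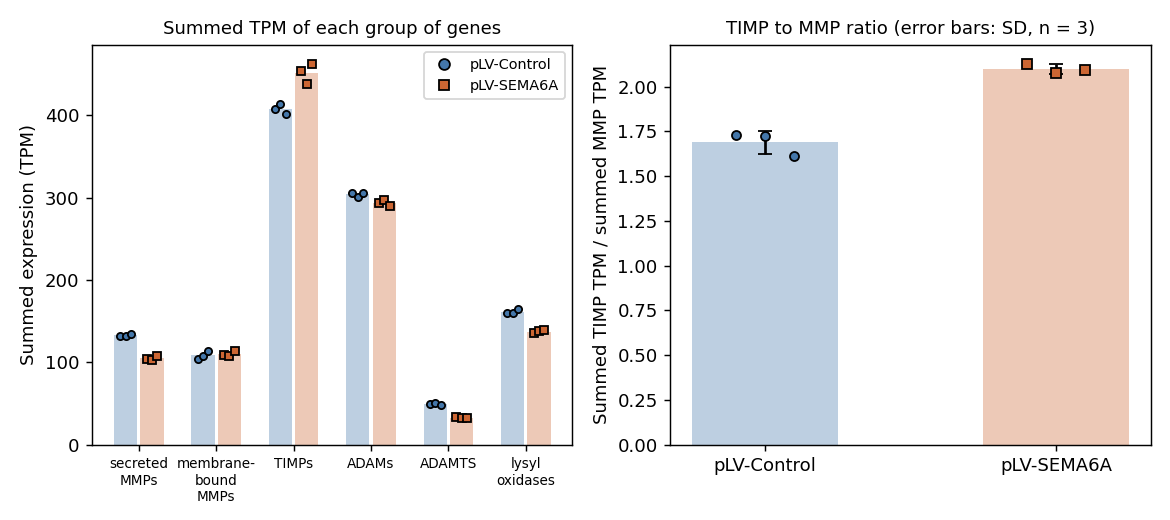
Summed TPM of each role (left) and the ratio of summed TIMP to summed MMP TPM (right), as bars for the mean and points for the 3 libraries of each group, with SD error bars on the right. The TIMP bar of pLV-SEMA6A stands above that of pLV-Control, the secreted MMP, ADAMTS and lysyl oxidase bars stand below theirs, and the ratio is 1.69 ± 0.07 in pLV-Control and 2.10 ± 0.03 in pLV-SEMA6A.

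A further 78 genes of matrix proteolysis, listed by function, were described in the same way, and 30 of them were tested. Of these 30, 9 rose, 7 fell and 14 did neither, where 19.5% of all genes tested rose and 28.2% fell. The median fold of the 30 was 0.00 on the log2 scale, beside −0.06 over all genes tested. Their DEGs were 2 higher (Tspan15 and Pcolce2) and 1 lower. Of all genes tested, 15.9% were DEGs, 5.12% higher and 10.8% lower. Tspan15, a tetraspanin that partners ADAM10, was at 16.7, 14.5 and 14.1 TPM in the 3 controls, against 20.8, 22.9 and 24.4 TPM in the 3 pLV-SEMA6A libraries. It rose with a log2 fold change of 0.56 (SE 0.09, adjusted p = 0.00226), beside 0.20 for Adam10.

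Pcolce2, which enhances the procollagen C-proteinases, was at 10.6, 11.5 and 11.6 TPM in the 3 controls, against 22.1, 17.7 and 27.2 TPM in the 3 pLV-SEMA6A libraries. Those of pLV-SEMA6A were spread widely but all lay above the controls, with a log2 fold change of 0.92 (SE 0.14, adjusted p = 0.00255). By group, the tested further genes were 1 MMP, which did not pass the threshold, and 4 ADAM, ADAMTS and astacin genes (1 rose). There were also 7 partners of ADAM10 and ADAM17 (2 rose and 1 fell) and 7 plasmin system genes (3 rose and 2 fell). The last 11 were other proteases, activators and inhibitors (3 rose and 4 fell). These small groups are to be read beside the 19.5% of all genes tested that rose and the 28.2% that fell. After centring, Anxa2 and S100a10, which form a plasminogen-binding complex at the cell surface and were chosen here after their values were seen, were DEGs as well. Their uncentred log2 fold changes were 0.47 and 0.42. The plasminogen receptor gene Plgrkt, of the same list, went the other way, at 50.9 TPM in pLV-Control against 40.5 TPM in pLV-SEMA6A. Its log2 fold change was −0.32 (limma, adjusted p = 0.00886), and −0.23 after centring (adjusted p = 0.0378).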

How the data were processed

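Poly-A RNA of SL4 cells was sequenced in 6 libraries, 3 without (pLV-Control) and 3 with SEMA6A overexpression (pLV-SEMA6A). The authors deposited TPM for each library with 2 decimals, and the mean TPM of each group, which was not used. The submitters' processing notes name Bowtie2, HISAT, RSEM and the build mm39, without versions or roles, and the annotation and strandedness are not given in the sources used here. TPM keeps no depth, so no counting interval or detection limit was computed, and the study's own tool for the comparison, DESeq2, could not be used because it needs counts.

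A linear model of log2(TPM + 1) on group alone was fitted by limma (version 3.58.1, R 4.3.3) with an intensity trend in the prior variance. It covered the 12510 genes whose mean over the libraries reached 1 TPM. Tests were two-sided with Benjamini-Hochberg adjustment, and the DEG criterion is the one the study's supplement gives for limma. An exact permutation test of 3 against 3 libraries cannot go below p = 0.1. The steps were tested on simulated data. Values of some genes are not reported here. The members and gene lists were chosen with earlier results of these data known. All members are named, with library values for DEGs, TIMPs, Plau, Plaur, Plat, Mmp14, Adam10, Adam17, Lox and Loxl2, and of the further genes the DEGs whose mean reached 5 TPM. Gene neighbours and overlaps are from GENCODE M21, which holds 52147 of the 53700 identifiers (97.1%), and promoters from RefSeq GRCm38.p6, both of another build than the files, so no position was carried between builds. The alternatives were a pseudocount of 0.1, no filter, a mean of at least 5 TPM, centring each library on its median, other minimum fold changes, the replicate number as a block, and leaving out each library.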

Additional observations from a re-analysis of the deposited data

How the results depend on the processing

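The number of members that were DEGs was 6. It was 17 (5 higher and 12 lower) without a minimum fold change, 1 (Adamts4) with a log2 minimum of 1, and 5 to 7 when each library was left out. Among all genes the count of 1987 became 5959 without a minimum, 385 with a minimum of 1, and 1900 to 1975 with a library left out. The 3 further genes became 16 (9 higher and 7 lower) without a minimum, 1 with a minimum of 1, 5 (4 higher and 1 lower) after centring, and 3 to 4 with a library left out. A pseudocount of 0.1 gave 8 of 30 members (with Adamts5 and Mmp16), beside 2235 of 12510 among all genes. No filter gave 6 of 40 members, beside 1978 of 24518. A mean of at least 5 TPM gave 5 of 25 members (Adamts4 was below it), beside 1477 of 9841. Centring gave 6 of 30 members, of which 2 were higher, beside 1963 of 12510.

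Centring moved every log2 fold change up by the same amount, so folds just below 0 had to turn sign. After it the log2 fold changes were 0.0461 for Plaur, 0.0535 for Serpinf1 and 0.0931 for Loxl1. With 1 library left out, that of Mmp14 ranged from −0.0261 (without pLV-Control replicate 1) to 0.0459 (without pLV-Control replicate 3), and that of Loxl1 from −0.0311 (without pLV-Control replicate 1) to 0.0209 (without pLV-SEMA6A replicate 1). With the replicate number as a block, 6 members were DEGs, the same 6 genes, with 1924 among all genes and 3 of the further genes. Same-numbered libraries did not deviate together (correlations of −0.02, −0.08 and −0.07). The labels give them only a shared number, and correlations of this kind cannot show whether they also share a culture or batch. The depth is unknown, so what low values such as those of Adamts5 could show cannot be stated.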
